A study of Mus musculus with 17 samples.

Results

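Cx3cr1, Ccr1, Ccr2 and Cxcr4 are genes for chemokine receptors of myeloid cells. The 4 genes were taken by symbol from the 13501 genes of the table, and all 4 were found and were among the 12074 genes tested. Libraries were made from living CD45+CD11b+ cells sorted from mouse brain, by the SMART-Seq v4 method for small RNA amounts. Transplanted cells were circulation-derived myeloid cells from the brains of 5xFAD mice lacking Trem2 that had received a bone marrow transplant and PLX5622, a CSF1R inhibitor that depletes microglia. Their donors were Trem2 knockout (KO transplant, 4 libraries) or Trem2 wild type (WT transplant, 4 libraries). Untreated microglia came from Trem2 knockout 5xFAD mice (KO microglia, 3 libraries), Trem2 wild-type 5xFAD mice (WT microglia, 3 libraries) and wild-type mice without 5xFAD (normal microglia, 3 libraries). 5xFAD mice carry transgenes that deposit brain amyloid. All transplant hosts lacked Trem2, and cell origin and treatment changed together, so that their parts cannot be told apart. For age and for the share of host microglia left after treatment, no value is given in these sources.

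As background, chemokine receptors are membrane receptors coupled to inhibitory G proteins that steer cells along gradients of secreted chemokines. Cx3cr1 is the receptor for fractalkine (Cx3cl1), a neuronal chemokine, and is a hallmark of resident microglia. Ccr2, the receptor for Ccl2, Ccl7 and Ccl12, lets inflammatory monocytes leave the bone marrow. Ccr1 binds Ccl3, Ccl5, Ccl6 and Ccl9 on monocytes, macrophages and neutrophils, and Cxcr4 binds Cxcl12 and holds blood cell precursors in the marrow.

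The groups followed their labels. Trem2 itself ran from 3962 to 5211 normalized read counts in KO transplant, 37066 to 53908 in WT transplant, 4367 to 5965 in KO microglia, 49347 to 53077 in WT microglia and 31205 to 37459 in normal microglia. Sall1, a transcription factor of resident microglia, averaged 187 ± 104 in KO transplant, 146 ± 70.3 in WT transplant, 5451 ± 3325 in KO microglia, 6061 ± 278 in WT microglia and 8603 ± 189 in normal microglia (SD, n = 4, 4, 3, 3 and 3). Ms4a7, typical of brain macrophages from blood, was at 15783 to 26888 in transplanted libraries and 335 to 1309 in microglia. Libraries held 16044078 to 30606394 reads, and the scarcest value of a member, Cxcr4 in S21, rested on 52 reads. Apoe took 12.3 to 16.2% of the normalized counts in transplanted libraries, while the highest gene of a microglia library took at most 4.31%. S25 and S27 of KO microglia lay closer to each other than to S26, the third library of that group, so results on KO microglia that turn on them are also given without them. That leaves S26 as the only KO microglia library, and its test assumes that a single library varies like the other groups, which supply the spread.

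Promoters of all 4 genes were searched for motifs, each as the 250 bases before the RefSeq start (GRCm38.p6). Those of Ccr1 and Cxcr4 are shown, while the windows of Cx3cr1 and Ccr2 overlap annotated exons and are not. Both shown windows are on the minus strand, from chr9:123968693-123968942 for Ccr1 and chr1:128592300-128592549 for Cxcr4. Capitals mark the motifs found.
Ccr1: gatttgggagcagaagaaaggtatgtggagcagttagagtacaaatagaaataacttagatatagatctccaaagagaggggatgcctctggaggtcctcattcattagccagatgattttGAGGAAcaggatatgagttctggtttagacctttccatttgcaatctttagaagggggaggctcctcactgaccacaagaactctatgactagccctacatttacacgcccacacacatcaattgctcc
Cxcr4: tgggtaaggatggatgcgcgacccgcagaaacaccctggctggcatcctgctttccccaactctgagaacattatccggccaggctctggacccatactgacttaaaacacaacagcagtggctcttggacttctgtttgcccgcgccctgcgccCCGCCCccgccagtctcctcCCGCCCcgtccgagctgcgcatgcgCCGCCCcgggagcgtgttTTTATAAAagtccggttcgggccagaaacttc
Both strands were searched for the letters GAGGAA, which factors such as PU.1 of the ETS family bind, and for those of the GC box, which are CCGCCC. The TATA box was searched as TATAAA, and a hypoxia response motif known for the binding of HIF factors was searched as ACGTG. Ccr1 held GAGGAA, from 129 to 124 bases before the start, a match present in 23.3% of the 32851 promoter windows of the same length. Cxcr4 held 3 matches to the GC box, a motif present in 32.7% of windows, at 95, 75 and 50 bases before the start. It also held TATAAA in both directions, overlapping, between 32 and 25 bases before the start (12.4% of windows). Neither window held ACGTG, and the windows of Cx3cr1 and Ccr2 held none of the motifs searched. The Cxcr4 window was 61.2% G and C and the Ccr1 window 43.6%, against a median of 52.4% over all windows.

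Per kilobase of exon, Cx3cr1 was the highest of the 4 receptors in every library. Per kilobase and as group means, it stood at 11460 ± 1444 in KO transplant, 9517 ± 1461 in WT transplant, 13527 ± 2685 in KO microglia, 16008 ± 638 in WT microglia and 19232 ± 480 in normal microglia (SD). The makeup of the 4 receptors differed in transplanted libraries. Ccr1 gave 8.75 to 14.3% of their sum per kilobase in KO transplant and 14.9 to 18.3% in WT transplant, against 1.32 to 2.56% in KO microglia, 0.745 to 0.911% in WT microglia and 1.11 to 1.49% in normal microglia. Cxcr4 gave 3.57 to 8.62% in KO transplant and 6.13 to 8.04% in WT transplant, and between 0.143 and 0.74% in all 9 microglia libraries. Ccr2 stayed between 0.249 and 2.08% in all 17 libraries, with its highest shares in S25 and S27 of KO microglia. These shares are ratios within a library and do not depend on its size factor.

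**Figure D1:**
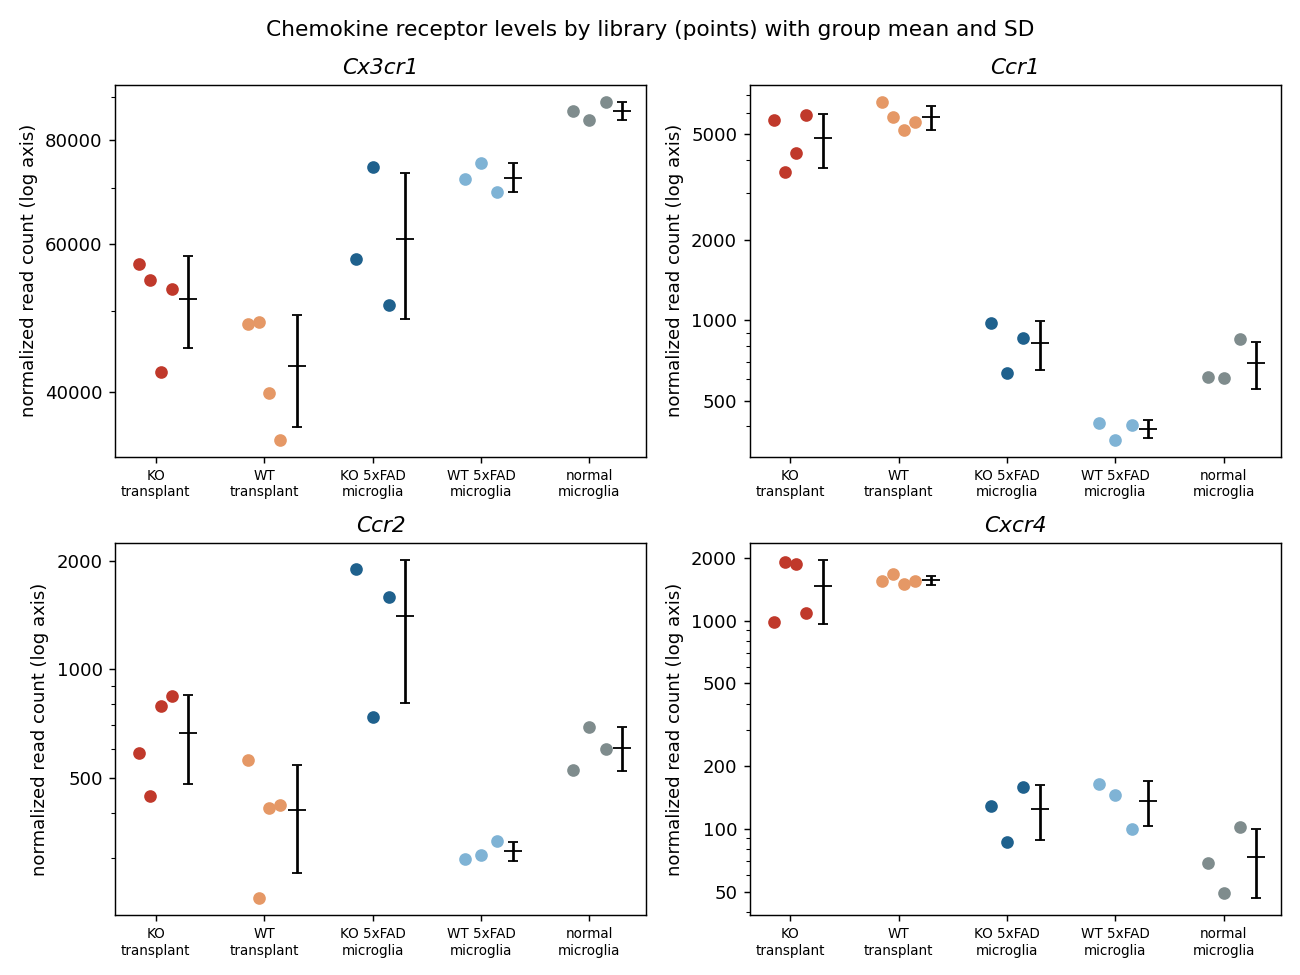
Normalized read count (log axis) of each receptor in each library (points) by group, with the group mean and SD (bars). Ccr1 and Cxcr4 sit far above the microglia in both transplant groups, Cx3cr1 is highest in normal microglia, and Ccr2 is highest in S25 and S27 of KO microglia.

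**Figure D2:**
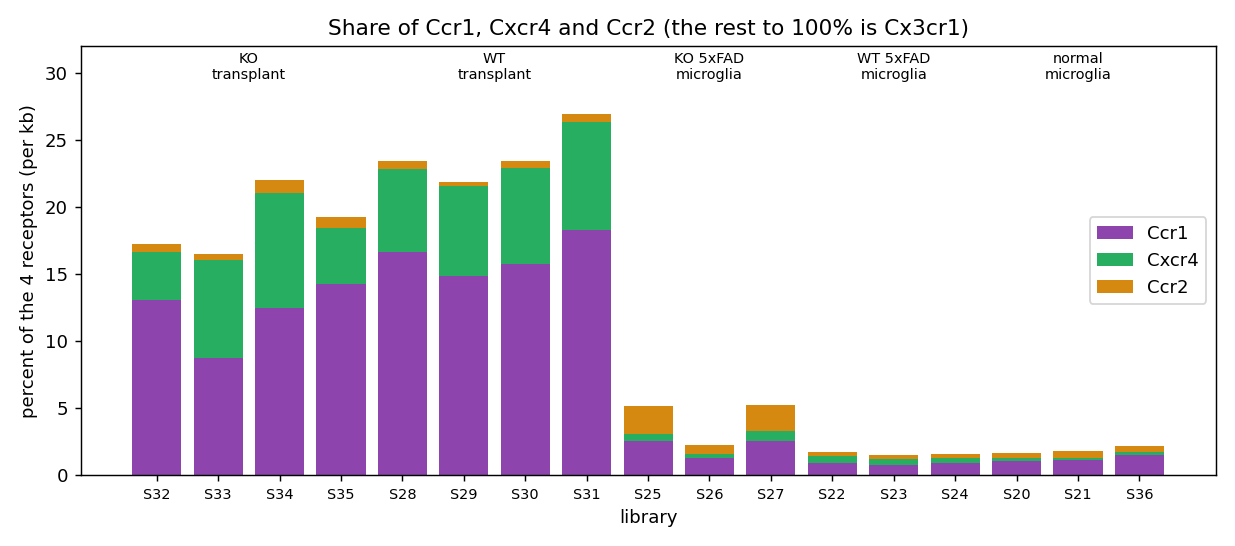
Share of Ccr1, Cxcr4 and Ccr2 in the sum of the 4 receptors per kilobase of exon (percent), 1 bar per library, with Cx3cr1 making up the rest. Ccr1 reaches 18.3% in S31 of WT transplant and stays at or under 2.56% in every microglia library.

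The first question was how transplanted cells differ from microglia of the same Trem2 genotype. With wild-type Trem2, Ccr1 and Cxcr4 rose steeply and Cx3cr1 fell. In WT transplant libraries Ccr1 had 6588, 5799, 5153 and 5520 normalized counts (S28 to S31), against 414, 357 and 404 in WT microglia (S22 to S24). The groups were far apart, and the difference was 3.87 on the log2 scale (SE 0.181, adjusted p = 2.19e-11), a 14.7-fold rise. Cxcr4 had 1544, 1674, 1494 and 1548 in WT transplant, against 164, 145 and 100 in WT microglia. Every transplanted library was above every microglia library, with a difference of 3.54 (SE 0.279, adjusted p = 2.01e-08), an 11.6-fold rise. Cx3cr1 had 48124, 48513, 39819 and 35043 in WT transplant, against 71920, 75082 and 69347 in WT microglia. It fell without overlap, by 0.76 (SE 0.151, adjusted p = 0.00086), to 0.589 times the microglia level, while 8 of 9 microglia markers also fell (median -1.58). Ccr2 had 561, 232, 413 and 420 in WT transplant, against 298, 305 and 335 in WT microglia. These ranges overlapped, with S29 below all WT microglia and the rest above them, and the difference of 0.31 (SE 0.306, adjusted p = 0.483) did not pass. So 3 of the 4 receptors were called where 28.2% of all tested genes were, and 3 did not overlap where 41.1% did not.

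With knockout Trem2 the same comparison gave 3 called members against 25.4% of all tested genes, and 2 without overlap against 27.8%. Ccr1 had 5646, 3584, 4236 and 5900 in KO transplant (S32 to S35), against 975, 633 and 862 in KO microglia (S25 to S27). The groups did not overlap, and Ccr1 rose by 2.55 (SE 0.181, adjusted p = 6.57e-09), 5.85-fold. Cxcr4 had 985, 1905, 1870 and 1084 in KO transplant, with S32 and S35 low and S33 and S34 high, against 130, 86.5 and 159 in KO microglia. The groups did not overlap, and it rose by 3.51 (SE 0.279, adjusted p = 3e-08), 11.4-fold. Ccr2, in contrast, had 587, 444, 789 and 843 in KO transplant, against 1896, 735 and 1589 in KO microglia. It fell by 1.01 (SE 0.306, adjusted p = 0.0201) with overlap through S26, and the call was lost without S25 (-0.74, adjusted p = 0.134), S27 (-0.87, adjusted p = 0.0961) or S33 (-0.83, adjusted p = 0.0719), and with S26 as the only KO microglia library (-0.19, adjusted p = 0.768). Cx3cr1 had 56899, 54410, 42165 and 53031 in KO transplant, against 57683, 74328 and 50804 in KO microglia, and -0.23 (SE 0.151, adjusted p = 0.292) did not pass.

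WT transplant against KO microglia sets brains after the cell therapy beside untreated Trem2 knockout 5xFAD brains, with values given above for each library. Trem2 genotype of the cells, cell origin and treatment all differ here and cannot be told apart. All 4 receptors were called, where 35.1% of all tested genes were, and all 4 were free of overlap, where 31.2% were. Ccr1 was higher by 2.82 (SE 0.181, adjusted p = 1.76e-09) and Cxcr4 by 3.68 (SE 0.279, adjusted p = 1.45e-08). Ccr2 fell by 1.75 (SE 0.306, adjusted p = 0.000285), and no WT transplant library reached a KO microglia library. With S26 as the only KO microglia library its difference was -0.92 (adjusted p = 0.0967) and did not pass. Beside Ccr2, 7 of 9 tested monocyte markers (median -2.02) and 9 of 10 neutrophil markers (median -2.24) were lower, and 1 monocyte marker was higher. Their part was not tested. Cx3cr1 fell by 0.50 (SE 0.151, adjusted p = 0.0158), and lost its call without S26 (-0.35, adjusted p = 0.0556) or S31 (-0.41, adjusted p = 0.0541).

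In these bulk samples, fewer cells of a type and less RNA per cell cannot be told apart. Beside the rise of Ccr1 and Cxcr4, the summed counts of 8 markers of macrophages of blood origin (all 8 detected in every library) were 271567 to 396715 in KO transplant and 351123 to 565427 in WT transplant, against 40210 to 73866 in KO microglia, 34493 to 38503 in WT microglia and 36716 to 41711 in normal microglia. The 10 monocyte markers summed to 2852 to 5605 in KO transplant and 3325 to 4858 in WT transplant, above WT microglia (1647 to 1891) and below KO microglia (6456 to 16495). In normal microglia this sum was 1857 to 3179, which overlapped KO transplant. Ccr1 alone equalled 101 to 174% of that sum in transplanted libraries and 5.22 to 32.8% in microglia. Neutrophil markers summed to 15750 to 36054 in KO transplant and 20776 to 30057 in WT transplant. Their sums were 54797 to 126324 in KO microglia, 15106 to 17988 in WT microglia and 19528 to 32143 in normal microglia, which overlapped both transplant groups. Of the 10 measured, 9 were higher in WT transplant than in WT microglia (median 1.87), and 9 were lower in KO transplant than in KO microglia (median -2.57). Beside the lower Cx3cr1, the 9 microglia markers summed to 405199 to 436749 in KO transplant and 372629 to 389967 in WT transplant. Their sums were 742961 to 756711 in KO microglia, 710131 to 723617 in WT microglia and 823035 to 899720 in normal microglia. Summed early response genes overlapped between the cell types, at 87992 to 126041 in KO transplant, 122047 to 233065 in WT transplant, 73018 to 139813 in KO microglia, 147763 to 171249 in WT microglia and 68905 to 101351 in normal microglia. T and NK cell markers summed to 2217 to 5408 in KO transplant, 405 to 3537 in WT transplant and 202 to 1723 in microglia. Oligodendrocyte markers stood at 24195 in S31 and 23985 in S30, against 4528 to 11096 in the other libraries. The part of these markers in the results was not tested.

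**Figure D3:**
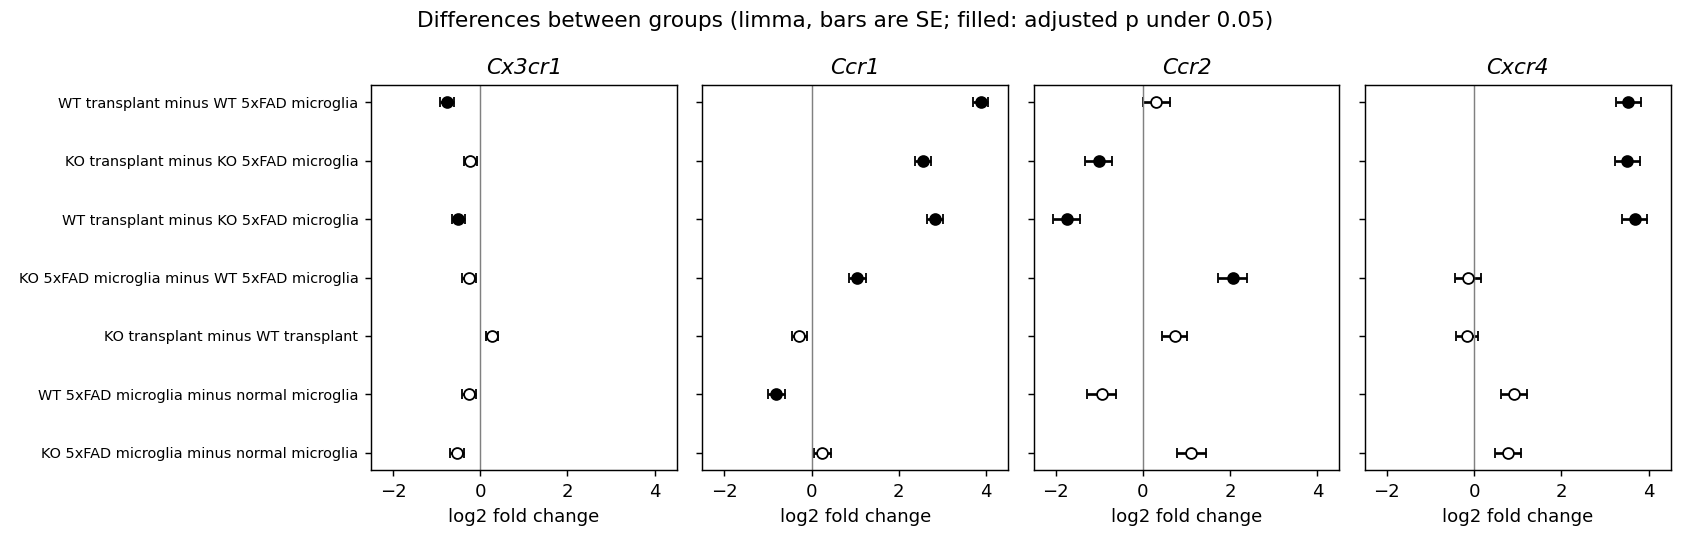
Log2 fold change (x axis) of each receptor in 7 comparisons of groups (rows), with bars for the SE and filled points for an adjusted p under 0.05. Cxcr4 lies between 3.51 and 3.68 in the 3 comparisons of transplanted cells with microglia. Ccr2 is called lower in both comparisons with KO microglia and is not called against WT microglia (0.31).

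The second question was what the loss of Trem2 does in microglia of 5xFAD mice. Ccr2 and Ccr1 rose in KO microglia, so 2 of the 4 receptors were called where 5.09% of all tested genes were, and the same 2 did not overlap, where 22.2% did not. Ccr2, at 1896, 735 and 1589 in KO microglia against 298, 305 and 335 in WT microglia, was higher by 2.06 (SE 0.327, adjusted p = 0.000737), 4.17-fold. S25 and S27 were high and S26 lay between them and WT microglia, but the groups did not overlap. Ccr1 was higher by 1.05 (SE 0.194, adjusted p = 0.00281), 2.07-fold, again without overlap. Both calls held with any 1 library left out, at 1.79 to 2.47 for Ccr2 and 0.92 to 1.23 for Ccr1. With S26 as the only KO microglia library neither passed, with 1.23 for Ccr2 (adjusted p = 0.143) and 0.69 for Ccr1 (adjusted p = 0.23). With the closest libraries averaged Ccr1 also missed the threshold (0.95, adjusted p = 0.0917). Cx3cr1 (-0.26, SE 0.161, adjusted p = 0.347) and Cxcr4 (-0.14, SE 0.298, adjusted p = 0.809) did not pass, and both had overlapping libraries. Cx3cr1 passed only without S26, at -0.41 (adjusted p = 0.04997).

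Markers of monocytes and neutrophils moved with Ccr2 in this comparison. The 10 monocyte markers, all detected in KO microglia, summed to 15898 in S25, 6456 in S26 and 16495 in S27, against 1647 to 1891 in WT microglia. The 10 neutrophil markers in the table, all detected in each library, summed to 117141, 54797 and 126324, against 15106 to 17988. Vcan was listed at 0 in 4 libraries and was the only monocyte marker so listed. Ccr2 equalled 9.63 to 11.9% of the monocyte sum in KO microglia, 15.7 to 20.3% in WT microglia and 16.5 to 37.2% in normal microglia, and 10.5 to 22.2% in KO transplant and 6.98 to 11.7% in WT transplant. The part of monocytes and neutrophils in the rise of Ccr2 and Ccr1 was not tested.

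**Figure D4:**
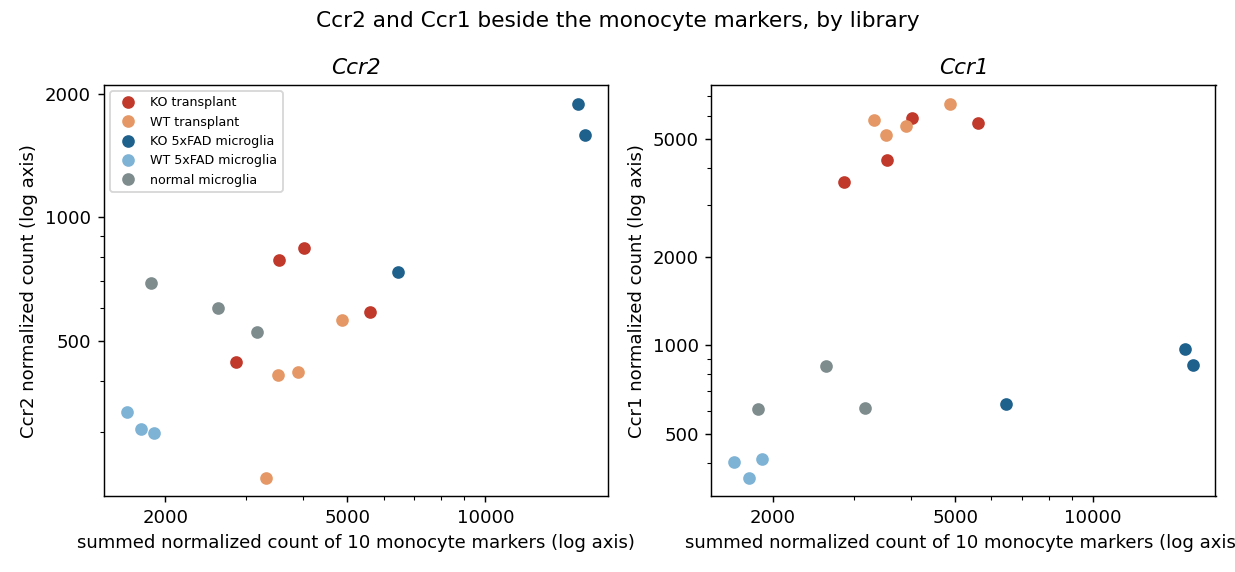
Ccr2 (left) and Ccr1 (right) normalized count against the summed normalized count of 10 monocyte markers, both on log axes, 1 point per library, coloured by group. S25 and S27 of KO microglia are highest in Ccr2 and in the monocyte sum, while the transplanted libraries have the highest Ccr1 at monocyte sums of 2852 to 5605.

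In transplanted cells the loss of Trem2 in the donor moved none of the 4 receptors past the threshold, where 6.74% of all tested genes were called, and all 4 overlapped, where 13.7% of genes did not. At an unadjusted p under 0.05, 1 of the 4 passed in limma, Ccr2. DESeq2 and edgeR on the recovered reads called 0 of the 4 as well, with 2 of the 4 at an unadjusted p under 0.05 in each. Ccr2 averaged 666 ± 184 in KO transplant and 406 ± 135 in WT transplant (SD, n = 4 each), a difference of 0.73 (SE 0.283, adjusted p = 0.113) with overlap. Without S28 it was 0.91 (adjusted p = 0.0454), which passed. Cx3cr1 averaged 51626 ± 6507 in KO transplant and 42875 ± 6583 in WT transplant (0.27, SE 0.139, adjusted p = 0.218). Ccr1 averaged 4842 ± 1113 in KO transplant and 5765 ± 609 in WT transplant (-0.28, SE 0.168, adjusted p = 0.295), and Cxcr4 1461 ± 494 in KO transplant and 1565 ± 76.5 in WT transplant (-0.16, SE 0.258, adjusted p = 0.708). A p that misses the threshold does not show that values did not differ. The ratio of Ccr1 to Ccr2 counts within a library did not overlap between the donors, as a description without a test. It was 9.62, 8.07, 5.37 and 7.003 in KO transplant, against 11.7, 24.9997, 12.5 and 13.2 in WT transplant. It was 0.514 to 1.42 in microglia. The share of gene pairs that separate the donors in this way was not counted. Per kilobase, the ratio of Cx3cr1 to Ccr1 did not overlap either (5.65 to 9.55 in KO transplant, 3.99 to 5.26 in WT transplant). Those of Cx3cr1 to Ccr2 (80.2 to 184 and 125 to 314) and to Cxcr4 (9.05 to 23.2 and 9.09 to 12.5) overlapped.

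Whether the effect of Trem2 loss differed between transplanted cells and microglia was tested as an interaction. It was called for 1 of the 4 receptors, Ccr1, and for 2.82% of all tested genes. For Ccr1 the knockout effect was lower in transplanted cells by 1.33 (SE 0.256, adjusted p = 0.00719), since it was -0.28 there and 1.05 in microglia. With S26 as the only KO microglia library the interaction was -0.97 (adjusted p = 0.111), and with the closest libraries averaged -1.26 (adjusted p = 0.109), neither past the threshold. Among markers, the interaction was lower for 9 of 10 of neutrophils (median -4.41), 6 of 9 tested of monocytes (-3.48) and 4 of 8 of macrophages of blood origin (-1.05), whose part was not tested. Ccr2 gave -1.33 (SE 0.432, adjusted p = 0.107), which passed without S26 (-1.74, adjusted p = 0.00585) or S29 (-1.57, adjusted p = 0.0402). Cx3cr1 gave 0.53 (SE 0.213, adjusted p = 0.188) and passed without S26 (0.68, adjusted p = 0.0279). Cxcr4 gave -0.02 (SE 0.395, adjusted p = 0.985), a sign that turned with TMM factors (0.053).

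The third question was what goes with the 5xFAD background in microglia. In WT microglia 1 of the 4 receptors was called against normal microglia, where 3.78% of all tested genes were. Ccr1, at 414, 357 and 404 in WT microglia and 615, 610 and 852 in normal microglia (S20, S21, S36), fell without overlap by 0.81 (SE 0.194, adjusted p = 0.0221). The call was lost without S22, S23, S24 or S36 (adjusted p from 0.0599 to 0.131), and with the closest libraries averaged (adjusted p = 0.11). Among markers, 4 of 8 of macrophages of blood origin (median -0.79), 4 of 10 of neutrophils (-1.40), 2 of 6 of border macrophages (-0.81) and 2 of 11 of T and NK cells (-1.68) were lower as well, and 9 of 17 early response genes were higher (1.16). Their part in the fall of Ccr1 was not tested. Ccr2 was also lower in each WT microglia library than in the normal libraries, which had 525, 692 and 601, but -0.95 (SE 0.327, adjusted p = 0.134) did not pass. Cxcr4, with 68.3, 49.5 and 102 in normal microglia, gave 0.92 (SE 0.298, adjusted p = 0.107). Cx3cr1, with 86585, 84508 and 88829 in normal microglia, gave -0.27 (SE 0.161, adjusted p = 0.462), and its libraries did not overlap with those of WT microglia. Groups did not overlap in 33.6% of all tested genes here.

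In KO microglia against normal microglia 0 of the 4 receptors were called in limma, where 3.91% of all tested genes were. At an unadjusted p under 0.05, 3 of the 4 passed (Ccr2, Cx3cr1 and Cxcr4). DESeq2 on the recovered reads called Cx3cr1 and Ccr2, and edgeR called Ccr2. Ccr2 gave 1.11 (SE 0.327, adjusted p = 0.0603), Cx3cr1 -0.53 (SE 0.161, adjusted p = 0.0676), Cxcr4 0.78 (SE 0.298, adjusted p = 0.109) and Ccr1 0.24 (SE 0.194, adjusted p = 0.41). Libraries did not overlap for Ccr2 and Cx3cr1, nor in 20.2% of all tested genes. Without S26 Ccr2 (1.53), Cx3cr1 (-0.68) and Cxcr4 (1.02) passed, with adjusted p of 0.00092, 0.00287 and 0.0145. With S26 as the only KO microglia library, Ccr2 gave 0.29, Cx3cr1 -0.22 and Cxcr4 0.30, and Ccr1 turned to -0.11. Beside Ccr2, 7 of 9 tested monocyte markers (median 2.33) and 8 of 10 neutrophil markers (median 2.62) were higher in KO microglia, and their part was not tested.

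Ordered by mean, Cx3cr1 ran from normal microglia (86641) through WT microglia (72116), KO microglia (60938) and KO transplant (51626) to WT transplant (42875). Only the first step was free of overlap between neighbouring groups. Ccr1 ran from WT transplant (5765) through KO transplant (4842), KO microglia (823) and normal microglia (692) to WT microglia (391), with gaps below KO transplant and below normal microglia. Cxcr4 ran from WT transplant (1565) through KO transplant (1461), WT microglia (137) and KO microglia (125) to normal microglia (73.3), with its gap below KO transplant. For Ccr2 every step overlapped, from KO microglia (1407) through KO transplant (666), normal microglia (606) and WT transplant (406) to WT microglia (312).

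The genes most like each receptor over the 17 libraries were taken by the root mean square difference of centred log2 values, with no test, since all points share the libraries and groups. Cx3cr1, whose own root mean square deviation was 0.40, lay nearest to Ptgs1 (0.10), the cyclooxygenase COX-1, followed by Akirin2 (0.12) and Git2 (0.12). Ptgs1 averaged 17234 in KO transplant, 14116 in WT transplant, 22001 in KO microglia, 25871 in WT microglia and 30935 in normal microglia. Ccr1 (own deviation 1.61) lay nearest to Ms4a4a (0.37), Cpne2 (0.37) and the fatty acid and lipoprotein receptor Cd36 (0.40). Cxcr4 (1.96) lay nearest to Qpct (0.39), an enzyme that forms pyroglutamate at protein ends, the lipid carrier Apoe (0.40) and the scavenger receptor Msr1 (0.43). Ccr2 (0.78) had no neighbour as close in proportion: Luc7l3, Zfp120 and Zfp758 were at 0.43 to 0.44.

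On chromosome 9 (GRCm38) Ccr1 (123962124 to 123968692) and Ccr2 (124101950 to 124113557) lie in a cluster with Ccr1l1 and Ccr3 between them, and Ccr9, Cxcr6 and Xcr1 on the side of Ccr1. Cx3cr1 lies apart on the same chromosome (119901616 to 120069879) and Cxcr4 on chromosome 1 (128588199 to 128592293).

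Of 19 other chemokine receptors reported, 15 were in the table and 13 were tested. In WT transplant against WT microglia 3 rose and 2 fell (median -0.28, against -0.03 over all tested genes, of which 28.2% were called). The neutrophil receptor Cxcr2 rose by 1.88, as did 9 of 10 neutrophil markers (median 1.87), whose part was not tested. Cxcr3 (2.55) and Cxcr6 (3.76), both known from T and NK cells, rose beside the T and NK markers given above, whose part was not tested, and Cxcr6 overlapped between the groups. Ccr6, the receptor for Ccl20, fell by 1.84, with low means of 6.12 in WT transplant and 22.9 in WT microglia. In KO transplant against KO microglia 4 rose and 4 fell (median -0.17, against -0.02 over all genes, of which 25.4% were called). Cxcr3 rose by 2.58 and Cxcr6 by 4.06, while Cxcr2 fell by 2.37, with 9 of 10 neutrophil markers (median -2.57). Ackr3, a scavenger of Cxcl12, also fell (-4.71), from a mean of 96.3 in KO microglia to 3.7. In KO transplant 1 library was listed at 0 for Ackr3, so the size of its fall rests on few reads. Ccr8, among those that rose, was listed at 0 in all 3 KO microglia libraries and was at least 6.19-fold higher in KO transplant, against a floor of 3 reads per library. The list median was also -0.17 with Ccr8 at that bound. In WT transplant against KO microglia 2 rose and 2 fell (median -0.82, also with Ccr8 at its bound, against -0.01 over all genes). Here 35.1% of all tested genes were called, so that this count is not above the background. Cxcr3 rose by 2.08 and Ccrl2 by 1.94, while Cxcr2 fell by 2.23 and Ackr3 also fell (-3.34). Ackr3 averaged only 20.9 in WT transplant, with 1 library at 0.

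Between KO and WT microglia 1 of the 13 rose and 1 fell (median 0.47, against -0.01). Cxcr2 was higher by 4.11 (adjusted p = 1.28e-05), beside the neutrophil markers given above, and Ccrl2, an atypical receptor for chemerin, fell (-1.503, adjusted p = 0.00258). The interaction of Trem2 with cell origin was called for Cxcr2 alone (-4.25, adjusted p = 0.000365). Between KO and WT transplant 0 rose and 1 fell, Ccrl2 by 0.86 (adjusted p = 0.0406, with overlap), with a list median of 0.50. Against normal microglia, Ccrl2 rose by 2.14 in WT microglia and Cxcr2 by 2.86 in KO microglia, the one call of the 13 in each (list medians 0.22 and 0.64). Of all tested genes 3.78% and 3.91% were called in these comparisons. The share was 5.09% between KO and WT microglia, 6.74% between KO and WT transplant and 2.82% for the interaction. The 1 call of the 13 between KO and WT transplant is near that background.

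**Figure D5:**
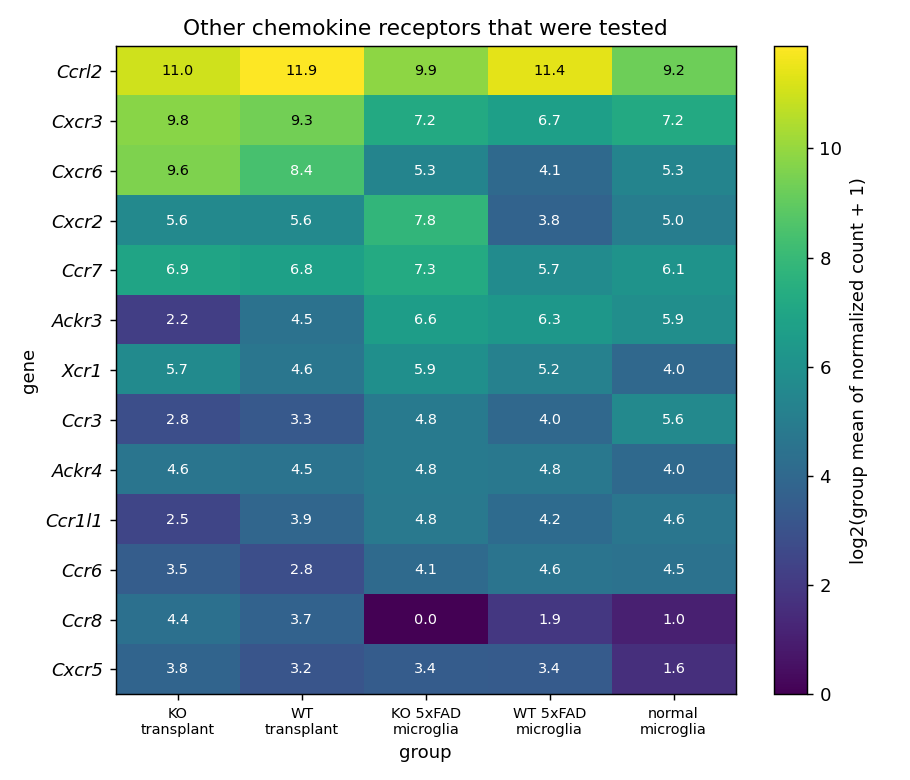
Group means of the 13 other chemokine receptors tested (rows), as log2(mean normalized count + 1), by group (columns) and without correction for gene length. Cxcr3 and Cxcr6 are higher in the transplant groups, and Cxcr2 is highest in KO microglia.

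The ligands of the receptors were all 12 in the table and tested. In WT transplant against WT microglia 3 rose and 4 fell (median -0.45, against -0.03 over all tested genes). Of the ligands of Ccr1, Ccl9 fell by 3.62 and Ccl6 by 2.95, and of those of Ccr2, Ccl12 rose by 2.01. Ccl8 rose by 3.52. In KO transplant against KO microglia 1 rose and 5 fell (median -0.68), among them Ccl9 (-3.44), Ccl6 (-2.35), Ccl4 (-2.505) and Ccl3 (-2.21). In WT transplant against KO microglia 1 rose, Ccl12 (1.49), and 2 fell, Ccl9 (-3.81) and Ccl6 (-2.18), with a median of -0.07. There 35.1% of all tested genes were called, so that this count is not above the background. The shares were 28.2% in WT transplant against WT microglia and 25.4% in KO transplant against KO microglia. Fractalkine (Cx3cl1) averaged at most 74.2 counts in any group and Cxcl12 at most 109, and of these only Cxcl12 in KO transplant against KO microglia (-2.42) passed.

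Between KO and WT microglia 1 ligand rose, Ccl8 (2.26), and 3 fell, Ccl6 (-0.77), Ccl4 (-1.65) and Ccl3 (-1.55), with a median of 0.03. Between KO and WT transplant 2 fell, Ccl4 (-1.94) and Ccl3 (-1.37), and 0 rose (median -0.53, against -0.05 over all genes). Against normal microglia, 4 rose in WT microglia (Ccl6 1.57, Ccl3 3.44, Ccl4 3.27 and Mif 1.28, median 0.84) and 3 in KO microglia (Ccl6 0.80, Ccl3 1.89 and Ccl4 1.62, median 0.54), and 0 fell in either. The interaction was called for Ccl8 alone (-3.37, adjusted p = 0.0166). Over all tested genes the called share was 5.09% between KO and WT microglia, 6.74% between KO and WT transplant and 2.82% for the interaction. Against normal microglia it was 3.78% in WT microglia and 3.91% in KO microglia.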

How the data were processed

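Expression was measured by bulk RNA sequencing of sorted brain cells in 17 libraries. The deposited signal is a read count per gene divided by 1 size factor per library. Tools named in the submitters' processing notes are STAR 2.5.2b, bcl2fastq, DESeq2 (listed as 3.17), RSEM and HTSeq, and the builds named are GRCm38.p6 and mm10. For the annotation, the strand setting and filters, these sources give nothing. Within a tolerance of 0.02, all values up to 20000 in every library were whole multiples of 1 step, which gave back the reads (16044078 to 30606394 per library, median 19254498). In S20 the step was close to 1, so that its low values alone do not show it.

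Values were analysed as log2(value + 1). The filter kept the 12074 of 13501 genes that reached 10 in 3 or more libraries. One limma model (3.58.1, lmFit and eBayes with trend, R 4.3.3) took in all 17 libraries, with 1 mean for each group. Genes were called at a two-sided Benjamini-Hochberg adjusted p under 0.05 over all tested genes. Every adjusted p in the text comes from that model unless another tool is named. The procedure was also run on simulated counts, with changes set in WT transplant alone and each library drawn independently. Those counts hold no close pairs of libraries, so they cannot test results that turn on S25, S26 and S27. The alternatives were a pseudocount of 5, no filter, TMM factors, edgeR 4.0.16 and DESeq2 1.42.0 on the recovered reads, a model of the compared groups only, the closest libraries averaged, and libraries left out.

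Outside the normal group, column names show a group and no replicate of their own, so libraries were assigned to groups and are named by the sample number in the column (S20 to S36). These sources do not say whether they come from separate animals, so a p-value measures only how these samples spread. The closest pairs, S30 with S31, S22 with S23 and S25 with S27, still differed beyond sampling noise (chi-square per degree of freedom 4.98, 6.21 and 9.86). Positions and exon lengths are from GENCODE vM21 on GRCm38, and levels between genes were compared per kilobase of the union of annotated exons.

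The members and gene lists were chosen with earlier results of these data known. Named were the 4 receptors, up to 4 called genes with the smallest p per list and comparison, and for each receptor the 3 tested genes with the smallest root mean square difference from it over the 17 libraries, on centred log2 values. Trem2, Apoe, Sall1 and Ms4a7 were added as checks, and Cx3cl1, Cxcl12, Ccr8 and Vcan are named outside this rule, chosen after their values were seen. One listed receptor is not reported here.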

Additional observations from a re-analysis of the deposited data

Results flagged for a closer look

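The effect of Trem2 loss on Ccr1 differed between transplanted cells and microglia by -1.33 on the log2 scale (SE 0.256, adjusted p = 0.00719, limma interaction term). Ccr1 averaged 4842 in KO transplant and 5765 in WT transplant, and 823 in KO microglia and 391 in WT microglia. It was higher in 3 of 3 KO microglia libraries than in any WT microglia library, while the transplant groups overlapped. The interaction was -0.97 (adjusted p = 0.111) with S26 as the only KO microglia library, its spread taken from the other groups, and -1.26 (adjusted p = 0.109) with the closest libraries averaged, and neither passed. Markers of neutrophils (9 of 10 lower, median -4.41), monocytes (6 of 9 tested lower, -3.48) and macrophages of blood origin (4 of 8 lower, -1.05) moved with it, and their part was not tested. No library of the 4-library groups stood apart in any of the 4 receptors by Dixon's test, and groups of 3 were not tested. That test looks for a single library apart, so it could not flag the split of Cxcr4 in KO transplant (985 and 1084, against 1870 and 1905). Over genes with at least 20 reads in a pair, S34 lay furthest from the KO transplant group. Its chi-square per degree of freedom was 56.0 to 90.5, against 17.6 to 23.3 among S32, S33 and S35.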

How the results depend on the processing

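Ccr1 and Cxcr4 kept direction and call in all 3 comparisons of transplanted cells with microglia under every alternative run, as did Cx3cr1 in WT transplant against WT microglia. With the closest libraries averaged, calls were lost for Ccr1 in WT against normal microglia (-0.79), KO against WT microglia (0.95) and the interaction (-1.26), Ccr2 in KO transplant against KO microglia (-0.81) and Cx3cr1 in WT transplant against KO microglia (-0.52). With only the compared groups in the model, the last pair also lost their calls (-1.01 and -0.50) and Ccr2 passed in WT against normal microglia (-0.95). In KO against normal microglia DESeq2 called Cx3cr1 (-0.51) and Ccr2 (1.22), and edgeR Ccr2 (1.20). DESeq2 called the interaction of Ccr2 (-1.46). The Cxcr4 interaction, not called anywhere, turned positive with DESeq2 (0.023), edgeR (0.085), TMM factors (0.053) and without S25 and S27 (0.46). Without those libraries, which leaves S26 alone with its spread taken from the other groups, Ccr1 turned to -0.11 in KO against normal microglia and Cx3cr1 to 0.044 in KO against WT microglia, and calls were lost for Ccr1 (0.69) and Ccr2 (1.23) in KO against WT microglia, Ccr2 in KO transplant (-0.19) and WT transplant (-0.92) against KO microglia, and the Ccr1 interaction (-0.97). Other values also moved with S26 alone, with no change of call: Cxcr4 in KO against WT microglia (-0.62), Cx3cr1 in KO transplant (-0.53) and WT transplant (-0.81) against KO microglia, and the interactions of Ccr2 (-0.50) and Cx3cr1 (0.23). Without S30 and S31 Cx3cr1 lost its call in WT transplant against KO microglia (-0.32). The cause was not tested.

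Leaving out 1 library gave -0.89 to -0.65 for Ccr1 in WT against normal microglia. In KO against normal microglia Ccr1 spanned 0.11 to 0.42, Ccr2 0.84 to 1.53, Cx3cr1 -0.68 to -0.40 and Cxcr4 0.53 to 1.05. Between KO and WT microglia Cx3cr1 spanned -0.41 to -0.14 and Cxcr4 -0.35 to 0.10. There Ccr1 (0.92 to 1.23) and Ccr2 (1.79 to 2.47) kept their calls throughout. Between KO and WT transplant Ccr1 spanned -0.38 to -0.14, Ccr2 0.49 to 0.91 and Cxcr4 -0.31 to 0.00498. Ccr2 in KO transplant against KO microglia spanned -1.43 to -0.74 and Cx3cr1 -0.35 to -0.08, Ccr2 in WT transplant against WT microglia 0.13 to 0.56, and Cx3cr1 in WT transplant against KO microglia -0.62 to -0.35. The interactions spanned 0.41 to 0.68 for Cx3cr1, -1.74 to -1.06 for Ccr2 and -0.27 to 0.18 for Cxcr4. That of Ccr1 spanned -1.50 to -1.19 and kept its call.

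Counts of called genes also moved. In WT against normal microglia 457 became 756 with DESeq2, 1757 with the compared groups only and 245 with averaging, and 272 to 325 with a library left out. In KO against normal microglia 472 became 311 without a filter, 1266 with DESeq2, 1 with the compared groups only, 22 with averaging and 2 without S25 and S27 (47 to 4600 with a library left out). In KO against WT microglia 615 became 997, 278 and 165 with DESeq2, the compared groups only and averaging, and 230 without S25 and S27 (297 to 3666). In KO against WT transplant 814 became 1695, 67 and 30 in that order, and 20 without S30 and S31 (113 to 1881). WT transplant against WT microglia gave 2013 with averaging in place of 3399. WT transplant against KO microglia gave 2644 with the compared groups only, 2109 with averaging, 2188 without S25 and S27 and 2726 without S30 and S31 in place of 4238 (2743 to 5879). The interaction gave 875 with DESeq2, 72 with averaging, 163 without S25 and S27 and 149 without S30 and S31 in place of 341 (185 to 1665). No paired analysis was possible because the columns outside the normal group carry no distinct replicate number. Cxcr4 in microglia rests on the fewest reads.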

Other observations

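Of 33 listed genes that act downstream of chemokine receptors 31 were in the table and tested. In WT transplant against WT microglia 5 rose and 5 fell (median 0.05, against -0.03 over all tested genes), where 28.2% of all tested genes were called, so that the count is near the background. Grk6, a kinase that silences active receptors, rose (1.499), and Rgs14 (1.34) and Rgs18 (3.43), regulators that switch G proteins off, rose as well, while Dock2, a Rac activator of moving leukocytes, fell by 0.69. In KO transplant against KO microglia 5 rose and 5 fell (median -0.16) where 25.4% of all genes were called, among them Grk6 (1.31), Rgs14 (1.01), Rgs10 (-0.79) and the G protein subunit gene Gng10 (-0.97, with overlap). In WT transplant against KO microglia 8 rose and 6 fell (median 0.05) where 35.1% of all genes were called, with Grk6 at 1.41, Rgs10 at -0.90, Gnb1 at 0.64 and Gng10 at -1.31.

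In KO against WT microglia 1 of the 31 was called, Rgs18 (2.90), where 5.09% of all tested genes were. In KO against WT transplant 1 was called, Gnao1 (-2.73), where 6.74% of all tested genes were. In the second comparison 6 of 8 oligodendrocyte markers also fell (median -3.23), with sums of 4528 to 6234 in KO transplant, against 7062 to 24195 in WT transplant, highest in S30 and S31, and their part was not tested. In the first, 9 of 10 neutrophil markers were higher beside Rgs18 (median 4.09). Against normal microglia, Rgs1 rose by 1.96 and Rgs19 fell by 0.39 in WT microglia, where 3.78% of all tested genes were called. In KO microglia Rgs1 (1.43) and Rgs18 (1.92) rose and Vav1 (-0.65) and Rgs19 (-0.38) fell, where 3.91% were called. The interaction called 0 of the 31 in limma, where 2.82% of all tested genes were called. In limma 4 of the 31 had an unadjusted p under 0.05, while DESeq2 called 3 and edgeR 1. These comparisons share groups, so that their values are not independent of each other.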
